A study of Mus musculus with 20 samples.

Results

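Sham-operated hearts on day 28 after surgery were compared with sham-operated hearts on days 3, 5, and 7, here called early sham. The members are 8 of the 20 arrays of the series, namely the sham arrays of those 4 days with 2 arrays each, and they were chosen by their labels alone. Averaging the 2 arrays of a day gave 1 sample for day 28 and 3 samples for early sham. All mice were male C57BL/6J, 8 weeks old and 20 to 25 g at surgery, and the sample was left ventricle. In TAB mice of the same days, also with 2 arrays a day, the aorta was narrowed by transverse aortic banding (TAB), which loads the left ventricle. Sham mice go through surgery without this load. The number of hearts behind an array is not stated, and the methods call the 2 arrays of a day technical replicates, so p-values measure only the spread between these arrays or days. Mice killed on day 28 were also older than those killed early, so that recovery from surgery and age cannot be told apart here.

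MiRNAs are short RNAs that bind to messenger RNAs through bases 2 to 8, the seed, and lower their translation or stability. Heart muscle cells are known for miR-1, miR-133, miR-208a, and miR-499, endothelial cells for miR-126, smooth muscle for miR-143 and miR-145, and red blood cells for miR-451. In the days after an operation, inflammatory cells that carry miR-142 and miR-223 can enter tissue, and fibroblasts of an injured heart are known for miR-21 and the miR-199 and miR-214 group.

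The sequences below belong to miRNAs on which the comparison and the brightness order turn. All were matched by name to RefSeq (GRCm38.p6), where names were matched for 394 of the 928 tested miRNAs, and capitals mark the seed. The first 7 were higher and the next 4 lower on day 28 in the test over repeated arrays given below. The last 6 are 5 of the brightest probes and miR-21, the marker of injured heart.
miR-3102-5p.2: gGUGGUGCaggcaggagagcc
miR-762: gGGGCUGGggccgggacagagc
miR-744: uGCGGGGCuagggcuaacagca
miR-691: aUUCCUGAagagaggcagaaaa
miR-1195: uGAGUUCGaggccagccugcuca
miR-5126: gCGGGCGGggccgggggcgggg
miR-2861: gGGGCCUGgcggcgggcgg
miR-22: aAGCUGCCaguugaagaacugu
miR-1952: uCUCCACCcuccuucug
miR-1192: aAACAAACaaacagaccaaauu
miR-574-3p: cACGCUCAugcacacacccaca
miR-690: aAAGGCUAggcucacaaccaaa
miR-3473b: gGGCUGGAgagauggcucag
miR-5100: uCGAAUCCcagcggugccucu
miR-3968: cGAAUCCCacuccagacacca
miR-208a-3p: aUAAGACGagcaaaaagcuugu
miR-21: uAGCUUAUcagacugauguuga

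On this build miR-22 lies at chr11:75463772-75463793 on the plus strand, miR-3102-5p.2 at chr7:100882367-100882387 on the minus strand, and miR-762 at chr7:127708534-127708555 on the plus strand. miR-208a-3p lies at chr14:54949072-54949093 on the minus strand, in an intron of the heart myosin gene Myh6. None of these 17 miRNAs shares its seed with another of them. Among the matched miRNAs named here, seeds were shared only within known pairs and families, such as miR-208a-3p with miR-208b, miR-221 with miR-222, and miR-146a with miR-146b.

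Each array carried 3 spots of each of 1086 mouse miRNA probes, and 928 miRNAs were tested. The others carried negative scanner flags at each of their spots throughout the series. A miRNA is called found on an array if 2 or 3 of its spots were free of such a flag. The day 28 arrays were the dimmest of the 8, with 603 and 570 miRNAs found and 75th percentiles of raw intensity of 336 and 303. The 6 early arrays had 618 to 695 found and 75th percentiles of 337 to 444. Empty spots had medians of 68 to 74. Intensities below are log2 values after quantile normalization, which gives each array the same set of values in the order of its own spots, so that equal ranks read as equal values. The number of arrays and not a count of molecules limits the precision.

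The first question was whether day 28 differed from early sham when each day counts as 1 sample. No miRNA passed an adjusted p of 0.05 in limma with the day pairs averaged (0 of 928, lowest adjusted p = 0.147), a fit with 2 residual degrees of freedom. This count depended on the scaling. The same test called 27 raised and 4 lowered with arrays scaled to a common 75th percentile, and 21 raised and 3 lowered on the authors' processed values, where limma gave all miRNAs 1 pooled error. At an unadjusted p of 0.05, 60 were higher (6.47%) and 26 lower (2.8%) on day 28, or 9.27% of those tested. For comparison, both day 28 arrays lay above all 6 early arrays for 116 miRNAs (12.5%) and below all of them for 51 (5.5%), which is 18% of all miRNAs.

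The second question was whether the RNA of day 28 differed from that of the early days beyond the spread between repeated arrays. By limma on the 8 arrays, 48 miRNAs were higher (5.17%) and 15 lower (1.62%) on day 28 at an adjusted p of 0.05, or 6.79% of the 928. The raised ones differed by 0.27 to 1.04 (median 0.51) and the lowered ones by -0.28 to -0.80 (median -0.44). All 63 were found on all 8 arrays. This test has 4 residual degrees of freedom, and its error holds array noise only, so it compares these RNA samples and not day 28 with the early days in general. Of the 48 raised miRNAs, 35 also had an unadjusted p under 0.05 with days as samples, and of the 15 lowered ones, 5 did. Over all 928, 6.47% were higher and 2.8% lower at that threshold. Both fits use the same arrays and the same difference, on which the 63 were chosen, so such agreement is favoured. With the 75th percentile instead, 53 were raised and 8 lowered, so that the raised share of the calls was 86.9% against 76.2% after quantile normalization. The deposited processed table gave 129 raised and 17 lowered, a raised share of 88.4%. For these values the paper's methods describe quantile normalization within technical replicates, which makes the 2 arrays of a day more alike. Its part in the higher counts was not tested. Without scaling between arrays no miRNA was called. The part of the dimmer day 28 arrays in these calls was not tested.

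**Figure D1:**
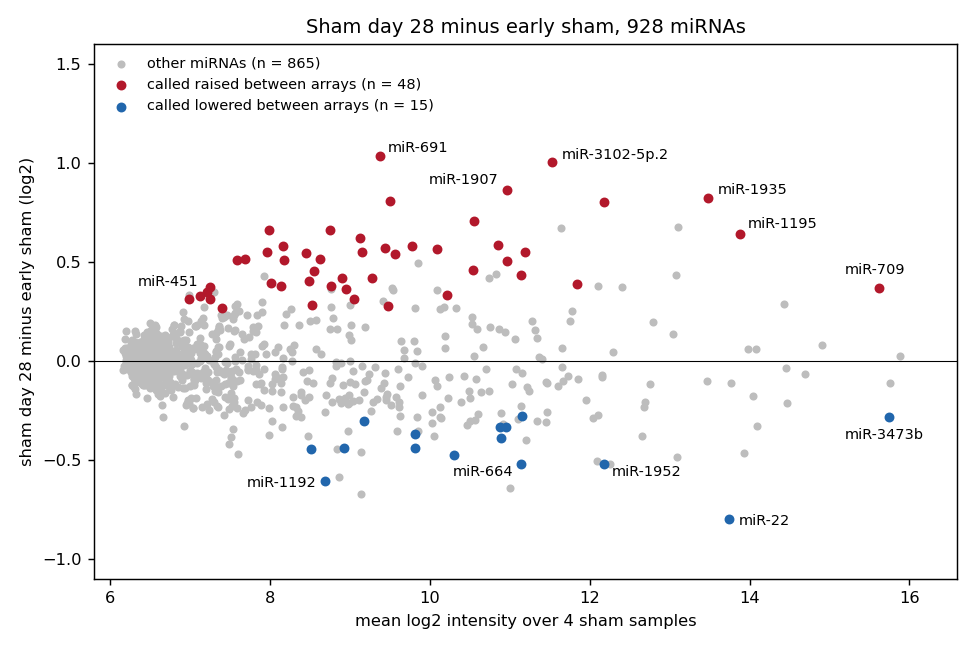
Each of the 928 miRNAs is a point, with its mean log2 intensity over the 4 sham samples on the x axis and sham day 28 minus early sham (log2) on the y axis. Red and blue points are the 48 miRNAs called raised and the 15 called lowered on the repeated arrays, and miR-22 is the lowest point at -0.80.

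The 10 largest differences in each direction were taken from miRNAs with both day 28 arrays outside the range of the 6 early arrays, so that their groups do not overlap by choice. miR-691 had the largest difference upward. Its log2 intensity was 10.27 and 10.04 on day 28, against 9.34 and 9.12 on day 3, 9.12 and 9.78 on day 5, and 8.86 and 8.47 on day 7. The early samples themselves spread widely, with day 7 lowest (mean 9.12 ± 0.41, SD, n = 3). The difference was 1.04 ± 0.35 (SE), a 2.05-fold higher level, with an adjusted p of 0.509 over days and 0.0206 over repeated arrays. Against day 3 alone and day 5 alone it was not called (adjusted p = 0.0525 and 0.232).

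miR-3102-5p.2 was 12.28 on both day 28 arrays, against 11.33 on both arrays of day 3, 11.25 and 11.56 on day 5, and 11.04 and 11.17 on day 7. The difference of 1.00 ± 0.14 (SE; adjusted p = 0.262 over days, 0.00335 over repeated arrays) exceeded the SD of the early samples (0.16). miR-1907 was 11.60 and 11.62 on day 28, against 10.67 and 10.72 on day 3, 10.83 and 10.84 on day 5, and 10.87 and 10.58 on day 7. Its early samples were close to each other (10.75 ± 0.08, SD, n = 3), and it was 0.86 ± 0.08 (SE) higher on day 28 (adjusted p = 0.147 over days and 0.00335 over repeated arrays).

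miR-762, whose sequence above holds 13 guanines, was 12.83 and 12.75 on day 28, against 12.14 and 11.92 on day 3, 12.07 and 12.20 on day 5, and 11.75 and 11.83 on day 7. miR-744, a miRNA conserved in mammals, was 11.10 and 11.07 on day 28, against 10.50 and 10.58 on day 3, 10.60 and 10.36 on day 5, and 10.25 and 10.01 on day 7. Both were lowest on day 7. The differences were 0.80 ± 0.16 (SE) for miR-762 and 0.71 ± 0.19 for miR-744, with adjusted p of 0.317 and 0.439 over days and 0.00335 and 0.00835 over repeated arrays.

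A pair of the brightest probes were also higher. miR-1195 was 14.24 and 14.49 on day 28, against 13.66 to 13.85 on the 6 early arrays with a median of 13.72. It was 1.56-fold higher (0.64 ± 0.06, SE; adjusted p = 0.147 over days, 0.00835 over repeated arrays). miR-709 was 15.83 and 15.96 on day 28 and 15.53 on each of the 6 early arrays, where it held the same rank throughout. Its difference of 0.37 was 0.63 when arrays were scaled to their 75th percentile.

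The other largest differences upward were miR-1935 (0.82), miR-3103* (0.80), miR-5107 (0.67), miR-5116 (0.67), and miR-667* (0.66). miR-5107 and miR-5116 were not called on the repeated arrays (adjusted p = 0.187 and 0.271). The day 5 arrays differed most between themselves for these 2 miRNAs, with 12.28 and 13.39 for miR-5107 and 10.46 and 11.76 for miR-5116.

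miR-22, a miRNA abundant in heart and skeletal muscle that is known to promote hypertrophy of heart muscle cells in mice, had the largest difference downward. It was 13.21 and 13.08 on day 28, against 13.85 and 14.07 on day 3, 14.03 and 13.85 on day 5, and 14.03 and 13.85 on day 7. The early samples were nearly equal (13.94 ± 0.01, SD, n = 3), and day 28 was 1.74-fold lower (-0.80 ± 0.06, SE; adjusted p = 0.147 over days and 0.00509 over repeated arrays). In raw intensity miR-22 read 11416 and 8762 on day 28, against 13495 and 21692 on day 3, 15923 and 13496 on day 5, and 16308 and 13828 on day 7. The raw groups did not overlap either, but miR-22 was chosen for groups without overlap. Without scaling, 755 of 928 miRNAs (81.4%) were lower on the dimmer day 28 arrays. The size and the call depended on the processing. With the 75th percentile the difference was -0.42 (adjusted p = 0.356 over days and 0.0755 over repeated arrays), and without scaling it was -0.64 (0.472 and 0.152). In the deposited processed table it was -0.46 (0.273 and 0.0274).

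miR-664 was 10.76 on both day 28 arrays, against 11.44 and 11.38 on day 3, 11.29 and 11.37 on day 5, and 11.07 and 11.10 on day 7. miR-1952 was 11.78 and 11.80 on day 28, against 12.40 and 12.28 on day 3, 12.36 on both arrays of day 5, and 12.20 and 12.25 on day 7. Each was 0.52 lower, or 1.44-fold (adjusted p over repeated arrays = 0.00357 for miR-664 and 0.00382 for miR-1952). Over days their adjusted p was 0.466 and 0.262. miR-1192 was 8.12 and 8.34 on day 28, against 8.86 and 9.20 on day 3, 9.07 and 8.67 on day 5, and 8.60 and 8.62 on day 7 (-0.61, adjusted p = 0.466 over days and 0.0389 over repeated arrays).

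The remaining largest differences downward were miR-3057-3p (-0.67), miR-5127 (-0.64), miR-1894-5p (-0.52), miR-466h-3p (-0.48), miR-3099* (-0.46), and miR-1843-5p (-0.45). Of these 6, miR-466h-3p and miR-1843-5p were called on the repeated arrays (adjusted p = 0.0124 and 0.0239). The 10 largest differences in each direction kept their sign with the 75th percentile, without scaling, and in the processed table. They were chosen for size, and these settings moved the median of all miRNAs only to 0.11, -0.11, and 0.11, so a change of sign was unlikely.

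**Figure D2:**
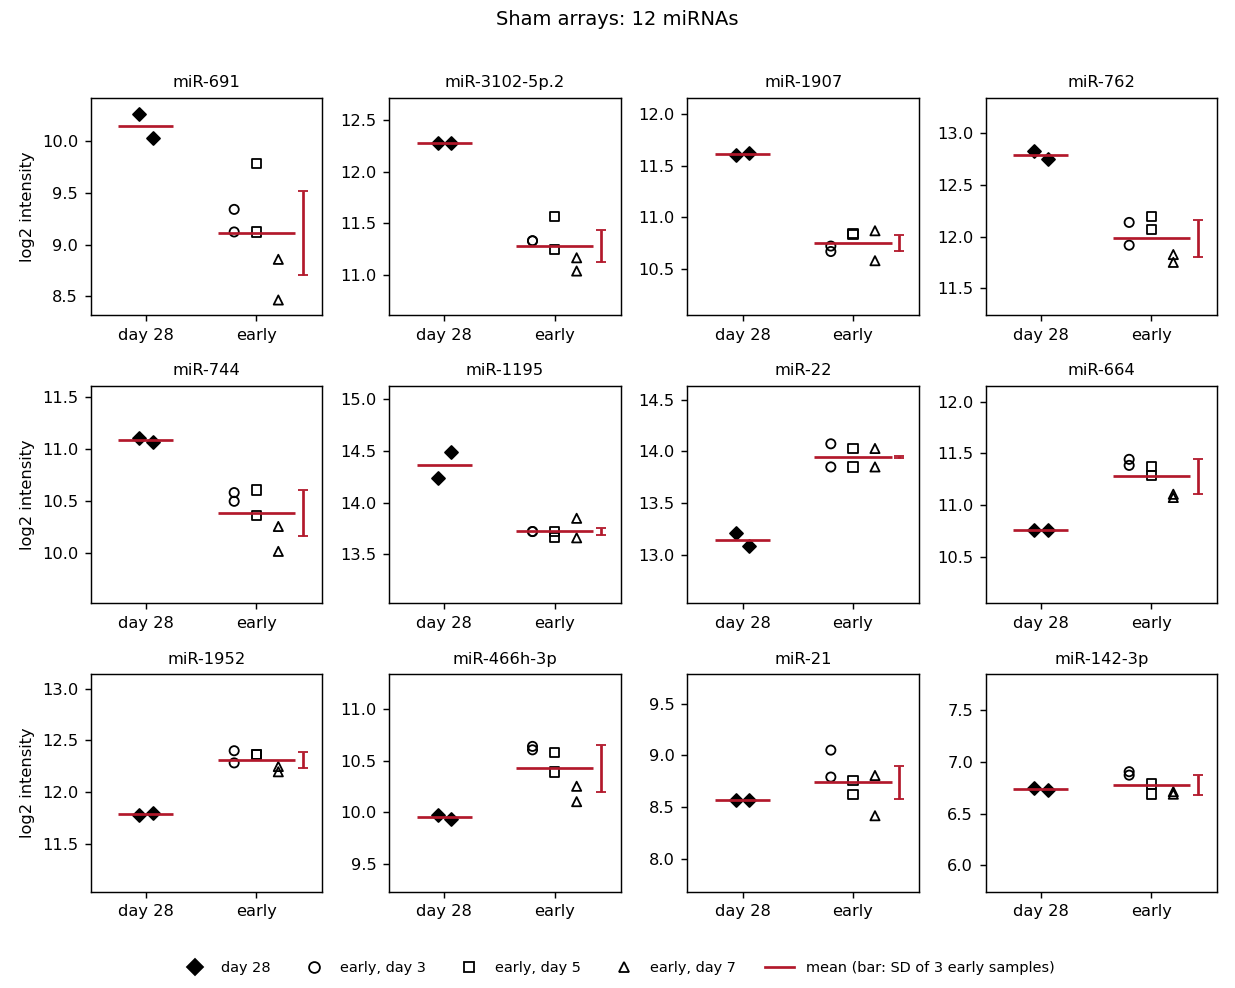
Log2 intensity on each of the 8 sham arrays for 12 miRNAs, with day 28 at the left (filled diamonds) and early sham at the right (open symbols by day). Red lines are group means and the red bar is the SD of the 3 early samples. The first 6 miRNAs lie above all early arrays on day 28, the next 4 lie below, and miR-21 and miR-142-3p overlap with early sham.

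Each early day was then compared with day 28 and with the other early days on the repeated arrays. Against day 3, 50 miRNAs were higher (5.39%) and 23 lower (2.48%) on day 28, or 7.87% together. Against day 5 there were 14 higher (1.51%) and 7 lower (0.754%), or 2.26%. Against day 7 there were 35 higher (3.77%) and 16 lower (1.72%), or 5.5%. Between the early days no miRNA was called (0 of 928 in each of the 3 pairs), with lowest adjusted p of 0.0528 for day 7 against day 3, 0.0585 for day 7 against day 5, and 0.0931 for day 5 against day 3. At an unadjusted p of 0.05 those 3 pairs had 43, 94, and 70 miRNAs higher and 56, 70, and 81 lower on the later day. These counts too depended on the processing. The authors' processed values gave 389 higher and 43 lower against day 3, 25 and 4 against day 5, and 54 higher against day 7, and between early days 5 higher and 8 lower for day 7 against day 3 and 5 and 4 for day 7 against day 5. Without scaling none was called higher against any early day.

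The root mean square difference over all 928 miRNAs was 0.231 between days 28 and 3, 0.211 between days 28 and 5, and 0.239 between days 28 and 7. Between early days it was 0.163 for days 7 and 3, 0.196 for days 5 and 3, and 0.203 for days 7 and 5. The 2 arrays of a day differed by 0.134 on day 28, 0.155 on day 3, 0.249 on day 5, and 0.199 on day 7. The last 4 values are between single arrays and the others between means of 2 arrays, in which noise is lower, so they are not on the same footing.

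Of the 63 miRNAs called above among the 928 tested, 13 were called against every one of the 3 early days. The 10 higher on day 28 were miR-3102-5p.2, miR-1907, miR-3103*, miR-762, miR-744, miR-1195, miR-5105, miR-327, miR-1981, and miR-709. The 3 lower were miR-22, miR-664, and miR-1952. These comparisons share the day 28 arrays. miR-709 held the same rank on all 6 early arrays, so quantile normalization left it no early spread, whereas its raw early values ran from 42290 to 60765.

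Apart from miR-22, no miRNA of the injury and white blood cell lists was called between day 28 and early sham in either fit. Over all 928 miRNAs the fit over days called 0 and the repeated arrays 63 (6.79%), so lists this small would hold few calls. miR-21 was 8.57 on both day 28 arrays, against 9.05 and 8.79 on day 3, 8.76 and 8.62 on day 5, and 8.81 and 8.42 on day 7, so the groups overlapped (-0.17 ± 0.15, SE; adjusted p = 0.83). Of the 18 entries of the injury and fibroblast list, 3 were higher and 15 lower on day 28, with a median of -0.04 against -0.01 over all 928 miRNAs. miR-22 was the only one called on the repeated arrays, and the other 17 lay between -0.23 for miR-31 and 0.04 for miR-21*. The miR-199 probe, which reads both miR-199a-3p and miR-199b, was 7.73 and 7.89 on day 28, against 7.79 to 8.10 on early arrays, and miR-214 was 9.40 and 9.23, against 9.28 to 9.63. miR-34c was found on no sham array of these days. The direction of the injury list turned with the scaling: 15 of 18 were lower after quantile normalization, 7 with the 75th percentile, and 18 without scaling. The median of all miRNAs moved to 0.11 with the 75th percentile and to -0.11 without scaling.

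None of the 7 miRNAs of white blood cells was called in either fit, against 0 and 6.79% of all 928. A list of 7 can hold no call at that share. The median of the 7 was -0.04. miR-142-3p was 6.75 and 6.73 on day 28, against 6.87 and 6.91 on day 3, 6.69 and 6.79 on day 5, and 6.69 and 6.71 on day 7. miR-223, a miRNA of neutrophils and monocytes, was 7.01 and 6.93 on day 28, against 6.92 to 7.13 on early arrays. miR-142-5p was found on none of the 8 arrays. The summed linear intensity of the 7 miRNAs was 1101 on day 28, against 1274 on day 3, 991 on day 5, and 1209 on day 7. These sums include miR-142-5p and have no background subtracted. Empty spots had medians of 68 to 74, against raw values of 97 to 130 for miR-142-3p, so floor signal makes up part of each sum.

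Red blood cell miRNAs did not move together. miR-451 was 7.51 and 7.42 on day 28, against 7.15 and 7.26 on day 3, 7.01 and 7.08 on day 5, and 7.17 and 7.06 on day 7, and it was called on the repeated arrays (0.35 ± 0.09, SE; adjusted p = 0.0229, and 0.434 over days). The probe shared by miR-486 and miR-3107 was 10.06 and 9.78 on day 28, against 9.97 to 10.36, a difference of -0.29 ± 0.09 that was not called (adjusted p = 0.171 on the repeated arrays). miR-144, which is transcribed together with miR-451, was found on none of the 8 arrays.

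The heart muscle miRNAs identified the tissue. miR-1a, miR-133a, miR-133b, miR-378, and miR-208a-3p were all among the 25 brightest probes, and all 7 entries were found on all 8 arrays. Day 28 was higher for 2 and lower for 5, and the median was -0.12. None of the 7 was called in either fit, against 0 and 6.79% of all 928 miRNAs. miR-1a, which restrains growth of heart muscle cells in mice, was 14.73 and 14.57 on day 28, against 14.57 to 14.96 on early arrays. miR-133a was 13.32 and 13.85 on day 28, against 13.66 to 14.73 (-0.47 ± 0.29, SE; adjusted p = 0.76). miR-133b was 14.03 and 13.66, against 14.03 to 14.37 (-0.33 ± 0.08, SE; adjusted p = 0.408), and its difference was -0.05 with the 75th percentile. miR-208b, which lies in an intron of the beta myosin gene Myh7, was 6.84 and 6.92 on day 28, against 6.72 to 7.13, with a difference of 0.00 ± 0.11. In bulk tissue, fewer cells of a type and less RNA per cell cannot be told apart.

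In the vessel list miR-126-3p of endothelium was 11.70 and 11.72 on day 28, against 11.70 and 12.25 on day 3, 12.75 and 12.07 on day 5, and 12.25 and 12.28 on day 7. Day 28 overlapped with 1 array of day 3, and the difference of -0.51 ± 0.20 (SE) was not called (adjusted p = 0.531). miR-126-5p, from the other arm of the same hairpin, differed by 0.20 ± 0.08 in the opposite direction, also without a call. The smooth muscle miRNAs miR-143 and miR-145 differed by -0.20 and -0.11.

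In each family list more members had lower than higher values on day 28, against 505 of 928 (54.4%) over all miRNAs. No listed family member was called in either fit, against 0 and 6.79% of all 928, and each list is small. The lists leave out some other arms of these families. Of such arms, miR-92a-2* (0.55), let-7d* (0.51), miR-30c-1* (0.38), miR-363-5p (0.33), and miR-23a* (0.28) were called higher on the repeated arrays. No star strand was called lower there. In the miR-99, miR-100, and miR-125 list all 5 were lower (median -0.21, from -0.40 for miR-125b-5p to -0.18 for miR-99b). In the miR-30 list all 5 were lower (median -0.13, lowest -0.29 for miR-30d). In the miR-15 list, whose members restrain division of heart muscle cells in newborn mice, 6 of 7 were lower (median -0.21, from -0.33 for miR-497 to 0.02 for miR-503). With the 75th percentile, and likewise in the processed values, 5 of 5, 5 of 5, and 6 of 7 were again lower, against 247 of 928 (26.6%) over all miRNAs. Without scaling 5, 5, and 7 were lower, against 755 of 928 (81.4%). Every member of the miR-99, miR-100, and miR-125 list, the miR-30 list, and the miR-15 list was found on at least 6 arrays. Over all miRNAs 594 of 928 were, and after quantile normalization 324 of those 594 (54.5%) were lower. The share among the 594 was not taken for the other scalings. The shares over all 928 therefore set these found miRNAs against a set that includes miRNAs not found. The let-7 list had 6 of 9 lower (-0.35 for let-7g to 0.30 for miR-98), the miR-17 list 9 of 11 (-0.20 for miR-106b to 0.07 for miR-106a), and the miR-23, miR-27, and miR-24 list 4 of 5 (-0.16 for miR-23b to 0.05 for miR-27b). Differences were within ±0.16 for all members of the miR-29 family (miR-29b 0.12, miR-29c -0.08), the miR-26 family (miR-26a -0.06, miR-26b -0.12), and the miR-181 family (miR-181c 0.05, miR-181b -0.15).

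The miRNAs of the imprinted Dlk1-Dio3 cluster, which is most active before birth, had 14 of 34 entries found on at least 6 of the 8 arrays. Their median was 0.01. The list leaves out miR-667*, the other arm of the listed miR-667, which was called higher on the repeated arrays (0.66, adjusted p = 0.0206). Among the 34 entries miR-494 alone was called there, against 6.79% of all 928 miRNAs. It was 10.84 and 10.92 on day 28, against 10.15 to 10.60 on the early arrays (0.46 ± 0.14, SE; adjusted p = 0.0229, and 0.466 over days). Of 12 entries of other tissues, 4 were found on at least 6 arrays, among them miR-206 of skeletal muscle at 7.89 and 7.75 on day 28, against 7.86 to 8.05, and miR-122 of liver at a mean level of 7.00. miR-203 of skin was found on no array. No entry of this list was called, against 6.79% of all 928 on the repeated arrays.

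**Figure D3:**
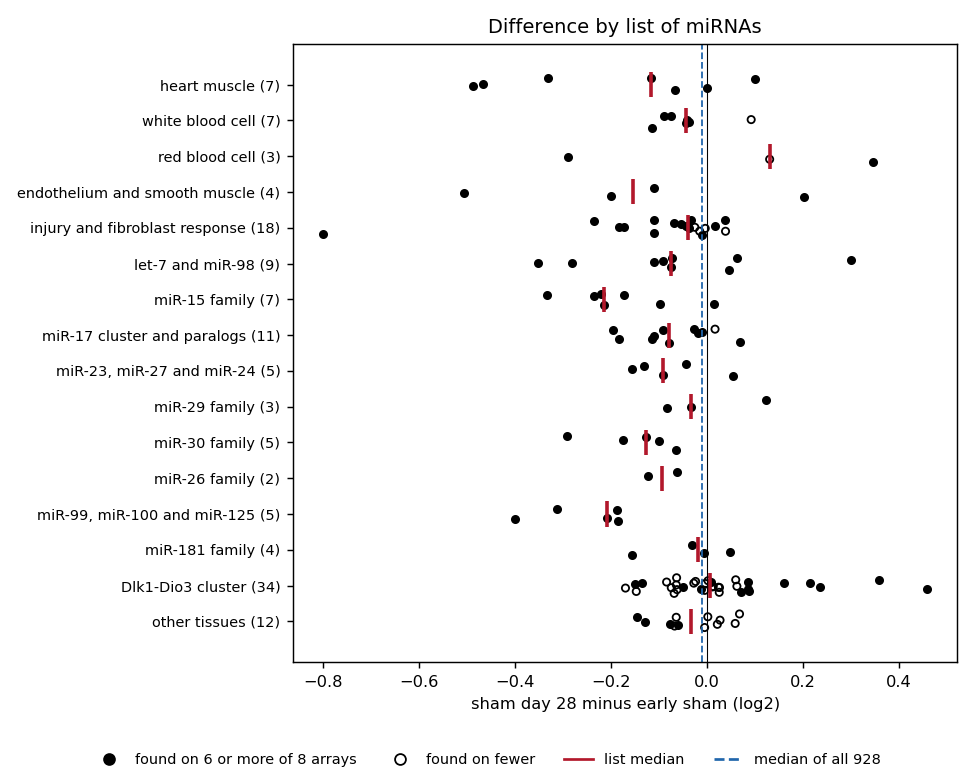
Sham day 28 minus early sham (log2, x axis) for each member of 16 lists of miRNAs, with the number of entries in parentheses. Filled points were found on at least 6 of the 8 arrays, red bars are list medians, and the dashed blue line is the median of all 928 miRNAs at -0.01. miR-22 at -0.80 stands apart in the injury list, and all points of the miR-30 list and of the miR-99, miR-100, and miR-125 list lie below 0.

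The names and sequences of the called miRNAs were set against those of all tested. Of the 48 raised miRNAs, 25 (52.1%) carried a number of 1000 or above, which marks entries of late discovery, and of the 15 lowered ones 7 did (46.7%), against 271 of 928 (29.2%) among all tested. Star strands, the rarer arm of a hairpin, were 14 of the 48 raised (29.2%) and 0 of the 15 lowered miRNAs. Among all tested they were 268 of 928 (28.9%), and among miRNAs found on at least 6 arrays 133 of 594. The raised share was near that of all tested, but the called miRNAs were all found on all 8 arrays. In the large rodent group of miR-466, miR-467, miR-669, and miR-297, 61 of 67 entries had lower values on day 28 (91%, median -0.19), against 505 of all 928 miRNAs (54.4%, median -0.01). With the 75th percentile 50 of the 67 were lower (74.6%), against 247 of 928 (26.6%). Of the 67, 60 were found on at least 6 arrays, against 594 of the 928. The share among those 594 was not taken for this scaling. On the repeated arrays 4 of the 67 were called lower (5.97%), against 1.62% of all tested, namely miR-466f, miR-466g, miR-466h-3p, and miR-466h-5p.

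Guanine content went with the day 28 difference. The dye of this label kit is carried by a platinum group that binds mainly to guanine, so the count of guanines bears on how much dye an RNA can take up. Across the 394 miRNAs with a sequence, which are not independent replicates, the Spearman correlation of the guanine count was 0.38 with the day 28 difference and 0.22 with the level. The 39 miRNAs with 10 to 17 guanines had a median difference of 0.20, and 31 of them were higher on day 28. The 49 miRNAs with at most 3 guanines had a median of -0.06, and 36 of them were lower. The 22 raised miRNAs with a sequence had a median of 9 guanines, the 7 lowered ones a median of 3, and all 394 a median of 6. Among the sequences above, miR-5126 holds 17 guanines and miR-2861 13, whereas miR-1952 and miR-1192 hold 1 each and miR-574-3p holds 2. miR-5126 was 11.40 and 11.53 on day 28, against 11.04 and 10.95 on day 3, 11.37 and 11.29 on day 5, and 10.83 and 10.72 on day 7 (0.43, adjusted p = 0.0124 over repeated arrays). miR-574-3p was 9.55 and 9.53 on day 28, against 10.01 and 10.15 on day 3, 9.93 and 9.95 on day 5, and 9.62 and 9.81 on day 7 (-0.37, adjusted p = 0.0229). Neither overlapped with the early arrays, like 45 of the 48 raised and 10 of the 15 lowered miRNAs, against 18% of all 928. Called miRNAs were chosen by a test on these same arrays, which favours such separation. With days as samples the unadjusted p in limma was 0.151 for miR-5126 and 0.0925 for miR-574-3p. miR-22 and miR-691, which lie at the 2 ends of the comparison, hold 6 guanines each.

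Other differences between days were set beside this one, of which the first 3 share the day 28 arrays. The Spearman correlation with the guanine count was 0.44, 0.31, and 0.25 for day 28 minus days 3, 5, and 7. Among early days it was 0.20 for day 5 minus day 3, 0.27 for day 7 minus day 3, and 0.01 for day 7 minus day 5. In TAB hearts, day 28 minus days 3, 5, and 7 gave -0.02, and the 39 guanine-rich miRNAs had a median of -0.01 there. Whether labelling has a part in the sham difference was not tested.

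**Figure D4:**
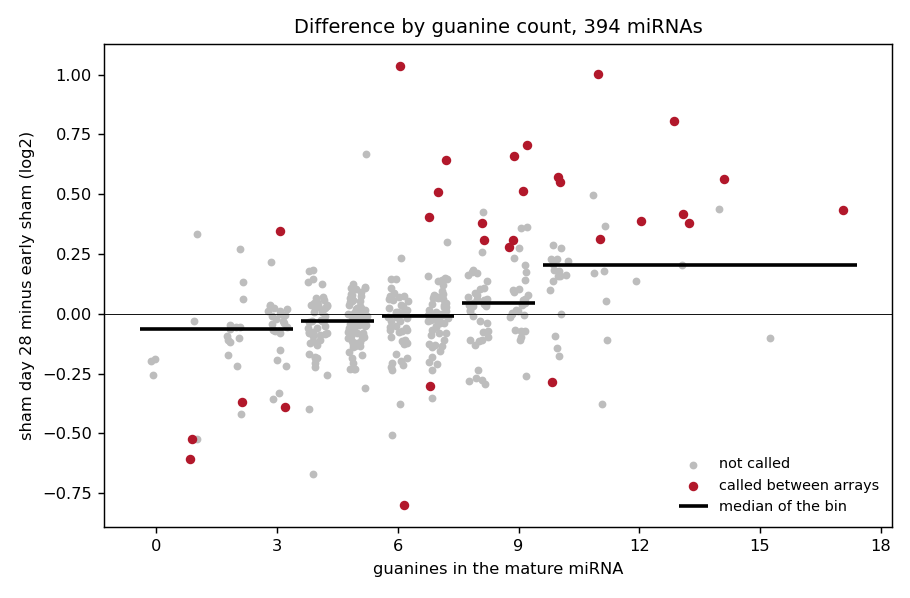
The number of guanines in the mature miRNA (x axis, points spread sideways within each count) and sham day 28 minus early sham (log2, y axis) for 394 miRNAs. Black bars are medians of bins of the guanine count, from -0.06 for at most 3 guanines to 0.20 for 10 or more, and red points are the miRNAs called on the repeated arrays.

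The last question was which probes were brightest in left ventricle without load. This is an order of probe signal and not of molecules, because probes differ in how well they bind and RNAs in how much dye they take up. The 25 brightest of 928 held 57.9% of the summed linear intensity on day 28, against 57.9% on day 3, 57.7% on day 5, and 57.4% on day 7. Quantile normalization gives all arrays the same set of values, so these shares are near equal by construction. At the top stood miR-690 (mean log2 intensity 15.88, range over the 4 samples 15.75 to 15.96), miR-720 (15.76, 15.68 to 15.86), miR-3473b (15.74, 15.53 to 15.90), and miR-709 (15.62, 15.53 to 15.90). miR-720 has since been withdrawn as a miRNA because it is a fragment of a transfer RNA. Raw intensity reached the scanner ceiling of 65535 for miR-690 on 4 arrays and for miR-720 and miR-3473b on 2 each, all of them early, so their early levels are lower bounds. miR-3473b was 15.53 on both day 28 arrays, against 15.68 to 15.96, and was called lower on the repeated arrays (-0.28, adjusted p = 0.0327), but its difference was 0.02 with the 75th percentile.

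The next group held miR-5100 (14.90), the muscle miRNA miR-1a (14.70), miR-3473 (14.46), miR-5097 (14.46), and miR-5115 (14.43). Then followed miR-133b (14.09), miR-1902 (14.08), miR-5128 (14.04), miR-3968 (13.98), miR-133a (13.93), miR-1195 (13.88), miR-2137 (13.77), and miR-22 (13.75). The last 8 were miR-1935 (13.48), miR-149* (13.47), miR-5107 (13.10), miR-378 (13.10), miR-328* (13.08), miR-1896 (13.04), miR-5109 (12.79), and the heart-restricted miR-208a-3p (12.75). The heart muscle miRNA miR-499 came at rank 142 (9.64), and miR-208b, which adult mouse ventricle makes little of, at rank 503 (6.88).

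Most neighbours in this order did not differ beyond their spread. Of 24 pairs of neighbours among the 25, 3 had the same order in all 4 samples: miR-709 above miR-5100 (by 0.57 to 0.93), miR-5115 above miR-133b (0.11 to 0.81), and miR-1896 above miR-5109 (0.03 to 0.51). Of the 25, 24 were among the 25 brightest on day 28, against 25 on day 3, 24 on day 5, and 23 on day 7. The set was ranked on the mean of these same 4 samples, which favours such overlap, so stability was not tested. Within the set day 28 differed by rank: miR-22 ranked 21.5 (a tie) on day 28, its lowest place, and 14 at its highest, whereas miR-1195 ranked 9 on day 28, its highest place, and 16.5 at its lowest.

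Entries of high number filled much of this list. Of the 25 brightest, 14 (56%) carried a number of 1000 or above, against 29.2% of all tested. Sequences were matched by name for 13 of the 25, and these had a median of 7 guanines. Some of them share stretches of sequence. miR-3968 and miR-5100 share the 9 bases CGAAUCCCA, and miR-3473b and miR-5128 share GAGAUGGCU, each of which occurs in 2 of the 394 sequences (0.508%). miR-3968 and miR-5100 differed by 0.06 and 0.08 between day 28 and early sham.

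**Figure D5:**
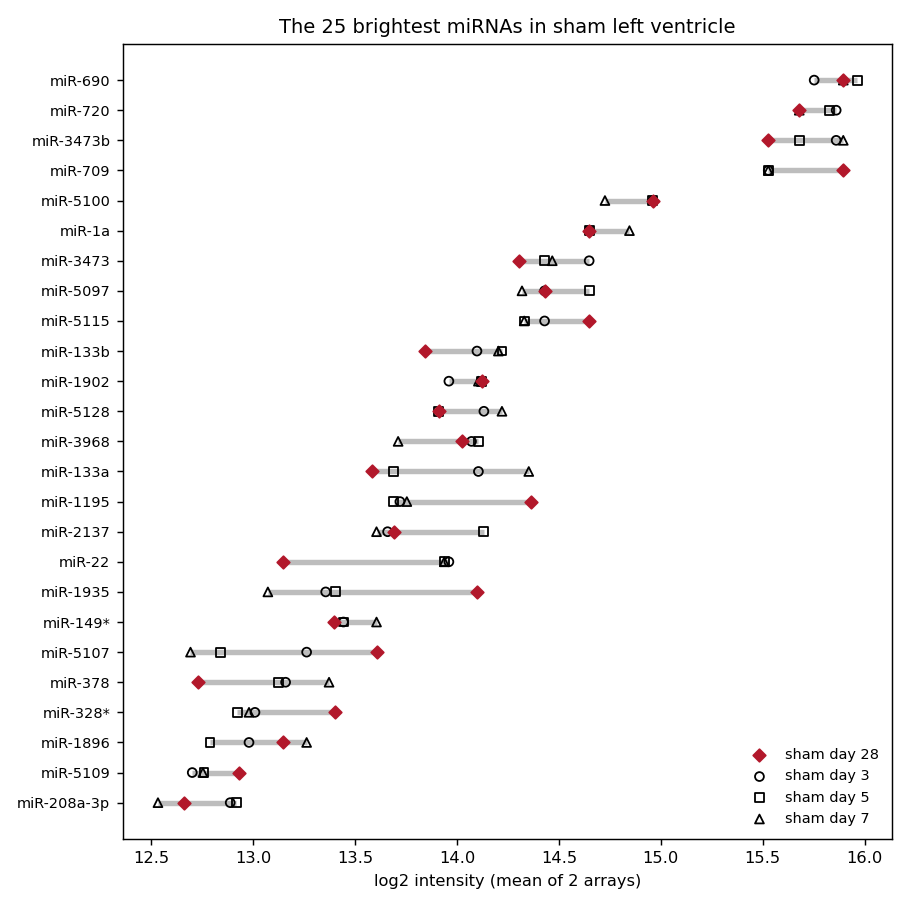
Log2 intensity (x axis, mean of 2 arrays) of the 25 brightest miRNAs in sham left ventricle, ordered by their mean over the 4 samples. Red diamonds are day 28, open symbols are days 3, 5, and 7, and grey bars span the 4 samples. miR-709, miR-1195, and miR-1935 lie to the right on day 28 and miR-22 to the left.

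The difference of day 28 from the early days was set against the same difference in TAB hearts, in a fit over 8 samples with 4 residual degrees of freedom and quantile normalization over 16 arrays, which moves the sham values slightly. The test of the sham against the TAB difference called no miRNA at an adjusted p of 0.05 (0 of 928, lowest adjusted p = 0.249; at an unadjusted p of 0.05, 38 were higher in sham and 29 lower). The called miRNAs were chosen on the sham arrays, which favours a larger sham difference. For the 48 raised ones the median difference was 0.48 in sham and 0.02 in TAB, and 27 (56.2%) had the same sign in TAB. For the 15 lowered ones it was -0.40 in sham and -0.27 in TAB, and 12 (80%) had the same sign, against 465 of all 928 (50.1%). miR-22 differed by -0.78 in sham and 0.23 in TAB (difference of differences -1.01 ± 0.29, SE; adjusted p = 0.668). miR-3102-5p.2 differed by 1.11 in sham and -0.20 in TAB (1.32 ± 0.25; adjusted p = 0.331), and miR-762 by 0.79 in sham and -0.48 in TAB (1.27 ± 0.33; adjusted p = 0.53). miR-21 differed by -0.17 in sham and -1.12 in TAB (0.95 ± 0.33; adjusted p = 0.668), and miR-142-3p by -0.03 in sham and -0.63 in TAB (0.60 ± 0.24; adjusted p = 0.668). The lowest adjusted p belonged to miR-208b, with -0.00 in sham and 1.12 in TAB (-1.12 ± 0.15).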

How the data were processed

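MiRNAs were measured in total RNA of mouse left ventricle, labelled with Cy5 by a platinum-based kit and hybridized to Mouse & Rat miRNA OneArray slides. The deposited raw file holds the intensity of each of 4608 spots without background subtraction, with a flag per spot. The authors' processed table, a linear intensity per miRNA scaled so that all arrays share 1 75th percentile, served as an alternative. The paper's methods also describe quantile normalization of its values within technical replicates. The 3 spots of a probe were combined by their median, log2-transformed, and quantile-normalized over the 8 sham arrays with limma 3.58.1 in R 4.3.3. A total of 158 of 1086 probes were removed, and 18 of the 928 kept name several miRNAs. Tests were lmFit and eBayes, two-sided, with Benjamini-Hochberg adjustment over all 928, on the 4 averaged samples, on the 8 arrays, and as an interaction with TAB over 16 arrays averaged to 8 samples. Scripts were tested on simulated data.

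The text names the 10 largest differences in each direction, the 25 brightest probes, the members of 5 marker lists, and the extremes of the other lists. Because no miRNA passed the 4-sample test, the first were taken from those found on at least 6 arrays with both day 28 arrays outside the early range. The other named miRNAs were chosen after their values were seen. Members and lists were chosen with earlier results of these data known. Sequences were matched by the same name (277) or by a current name paired by hand (117). Alternatives were the 75th percentile, no scaling, quantile normalization over 10 or 20 arrays, the processed table, normexp with an offset of 16, other filters and spot means, an intensity trend, arrays as samples, and samples or replicates left out. P-values over repeated arrays measure technical spread.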

Additional observations from a re-analysis of the deposited data

How the results depend on the processing

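With days as samples, 27 miRNAs were raised and 4 lowered with the 75th percentile and 21 and 3 in the processed table, settings in which limma gave every miRNA the same pooled error (median SE 0.182 and 0.185, against 0.0867). With the 8 arrays taken as samples, 24 were raised and 4 lowered. Apart from the replicate block given below, all other alternatives of this fit, including each day or replicate left out, called 0 miRNAs. On the repeated arrays the 75th percentile called 53 raised and 8 lowered, the authors' processed values 129 and 17, and no scaling 0 and 0. Of the 48 raised and 15 lowered miRNAs, 41 and 6 were called again with the 75th percentile and 48 and 13 in the processed table. For pairs of days, the 75th percentile gave 23 raised and 2 lowered for day 28 against day 5 and 8 lowered against day 7. Without scaling, 0 were raised against day 3, and 0 were called in either direction against days 5 and 7. The processed table gave 389 raised and 43 lowered against day 3, 25 and 4 against day 5, 54 raised against day 7, 5 raised and 8 lowered for day 7 against day 3, and 5 and 4 for day 7 against day 5. miR-149* was -0.10 after quantile normalization, 0.46 with the 75th percentile, and 0.41 in the processed table, and miR-3473b was -0.28, against 0.0155 with the 75th percentile. The cause was not tested. In the comparison of the sham and TAB differences, 0 to 1 were called lower in sham with a replicate or day left out. Among miRNAs found on at least 2 arrays, the Spearman correlation of the guanine count was 0.15 with level and 0.43 with the difference, and the Spearman correlation of the GC percentage 0.0417 with level (0.17 over all 394) and 0.34 with the difference (0.29 over all).

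The replicate numbers did not pair the samples: deviations of arrays with the same number correlated from -0.27 to 0.23 between days. With a replicate block and the 8 arrays as samples, 14 were raised and 2 lowered, and on the repeated arrays 38 and 14, of which 38 and 11 were among the calls without the block. The block gave 3 lowered for day 28 against day 5 and 1 lowered for day 5 against day 3, and for sham against TAB over 16 arrays 6 higher and 5 lower in sham.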

Other observations

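Sham day 14, taken between the 2 ends of this comparison, stood apart from the other sham days, with a root mean square difference of 0.304 to 0.336 from them against 0.163 to 0.239 among them (quantile normalization over 10 sham arrays). Of the 48 miRNAs raised on day 28, 22 lay above all 3 early samples on day 14 and 8 lay below all of them. Of the 15 lowered ones, 9 lay below and 2 above. On this scale miR-22 was 13.96 on day 3, 13.93 on day 5, 13.93 on day 7, 14.24 on day 14, and 13.16 on day 28, so that its day 14 value was the highest and its day 28 value the lowest. miR-1907 was 10.69, 10.82, 10.72, 11.35, and 11.61 on the same days, and miR-3102-5p.2 was 11.31, 11.38, 11.08, 11.38, and 12.35. For day 14 minus the early days, the Spearman correlation of the guanine count was 0.06 over the 394 miRNAs with a sequence.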
